A study of Mus musculus with 6 samples.

Results

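Messenger RNA of 10 transcription factors that build and maintain heart muscle was compared between 2 sorted sub-populations of mouse cardiomyocyte preparations. The factors were chosen by name and not by a rule on their values, with earlier results of these data known. They were Nkx2-5 of the NK2 family, Gata4 and Gata6 of the GATA family, Mef2a, Mef2c and Mef2d of the MEF2 family, Hand2, the T-box factors Tbx5 and Tbx20, and Srf. All 10 were found among 23404 genes, and all 10 passed the filter on low values, which kept 12907 genes.

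The preparations came from C57BL/6J mice, and both gates share that strain and the label cardiomyocyte. The first gate, FITChigh, was bright in green fluorescence (the FITC channel) and dim in forward scatter (FSC), which depends on the size of a particle. The second, FITCdim, was dim in FITC and bright in FSC. Each gate had 3 libraries, which the series text calls biological replicates, and the title of the series gives its purpose as the isolation of purified ventricular cardiomyocytes by autofluorescence. The sources used here give neither the age or sex of the mice nor the number behind a library. No genetic change or treatment is named for either gate.

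These factors bind DNA in the promoters and enhancers of muscle genes and often act side by side at the same sites. GATA factors are zinc finger proteins, Nkx2-5 is a homeodomain protein, Hand2 is a basic helix-loop-helix protein, and MEF2 factors and SRF share the MADS domain. In the adult heart they keep contractile, ion channel and natriuretic peptide genes active. Some are not limited to myocytes: Mef2c is also made in endothelium, and Gata4, Tbx20 and Hand2 are also found in cardiac fibroblasts of the mouse.

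Promoter sequence is shown for the member with the largest rise, Hand2, and for Srf, whose promoter holds the motif of its own protein. No window of Gata4, Gata6 or Tbx5 was included in the motif search. The 9 RefSeq windows used (GRCm38.p6, 250 bases before to 50 after a start site) covered 7 of the 10 members. They were searched on both strands for 6 motifs: AGATAA for GATA factors, TNAAGTG for the NK2 class, AGGTGTGA for T-box factors, CATCTG for HAND factors, the CArG box of SRF and the MEF2 site. In the Hand2 stretch, chr8:57320733-57320832 on the plus strand, capitals mark the HAND motif and, further along, the GATA motif as read on the other strand.
Hand2: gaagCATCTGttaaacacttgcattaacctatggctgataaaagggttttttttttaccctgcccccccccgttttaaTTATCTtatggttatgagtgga
In the Srf stretch, chr17:46556183-46556272 on the minus strand, capitals mark 2 CArG boxes, which lie 82 to 73 and 62 to 53 bases before the start.
Srf: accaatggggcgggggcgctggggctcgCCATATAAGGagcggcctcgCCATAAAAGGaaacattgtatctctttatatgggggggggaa
Over all 32851 mouse windows, 1.63% held a CArG box, 11.2% the GATA motif and 17.2% the HAND motif, so the GATA and HAND motifs are common. The Mef2a window held a MEF2 site, found in 3.19% of all windows, across its start site. One of the 3 Mef2c windows held the HAND motif. The windows of Nkx2-5, Mef2d and Tbx20 held none of the 6 motifs. A match describes letters and is not evidence of binding.

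Some measures of the libraries bear on every value. Levels are the deposited read counts as adjusted to a common library size by the authors (adjusted counts), in which 1 read was worth 0.607 to 1.54 units, and the reads behind them numbered 1589825 to 2931045 per library in FITChigh and 1705626 to 3346001 in FITCdim. The totals of the adjusted values still differed between the gates, at 2333473 to 2443707 in FITChigh and 2030583 to 2112872 in FITCdim. Both gates carried the RNA of working myocytes: 18 cardiomyocyte markers summed to 470000 to 510000 in FITChigh and 310000 to 364000 in FITCdim. The summed markers of each other cell type were lower in every FITChigh library than in any FITCdim library. Some listed markers did not pass, such as Abcc9 on the pericyte and smooth muscle list (1230 in FITChigh and 1150 in FITCdim on average). Abcc9 was the most abundant gene of that list in both gates. Of all these markers, the fibroblast factor Tcf21 was at 0 in all FITChigh libraries. With FITCdim included, Tcf21 also missed the filter on low values, so it was not tested. In bulk libraries, fewer cells of a type and less RNA per cell cannot be told apart.

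Hand2 and Gata6 were the factors that rose in FITChigh, none of the 10 fell, and 8 missed the threshold of the test (limma-trend on log2(value + 1), Benjamini-Hochberg adjustment over all genes, threshold 0.05). Over all tested genes, 2.51% were called higher and 13.5% lower. The median log2 fold change was 0.11 for the 10 factors and -0.01 for all tested genes, and the factors ranged from -0.33 to 0.69. The order of these medians turned after quantile normalization, with 0.03 for the factors and 0.13 for all tested genes. The median of the factors was -0.09 with 1 common total, -0.08 with limma-voom and -0.27 when scaled to cardiomyocyte markers, and ran from -0.03 (without FITCdim replicate 2) to 0.30 (without FITChigh replicate 2 or FITCdim replicate 3) with 1 library left out. The values of the gates did not overlap for 3 factors, Hand2, Gata6 and Nkx2-5, each with FITChigh above, as they did not for 11.4% of all tested genes. In 20.2% of tested genes the gates were apart with FITChigh below, and in 31.6% they were apart in either direction. All 10 factors lay between the 78.5th and the 94.5th percentile of tested genes by mean level, on 70 to 719 reads per library.

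**Figure D1:**
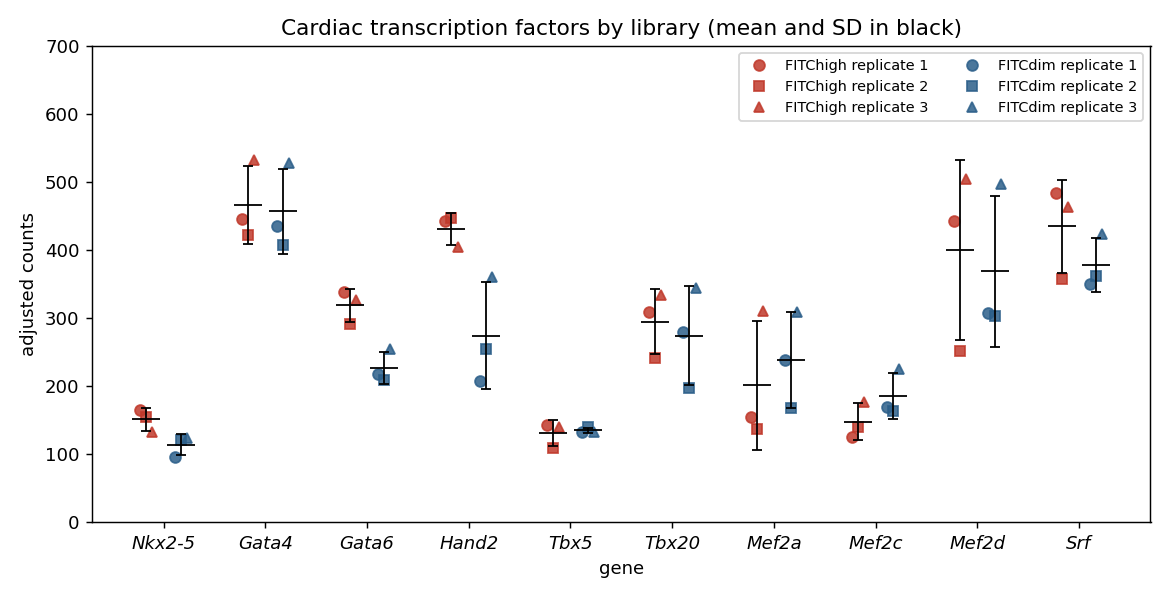
Adjusted read counts (vertical axis) of the 10 factors in each library, FITChigh in red and FITCdim in blue, with a marker shape for each replicate and the mean and SD of 3 libraries in black. Hand2, Gata6 and Nkx2-5 have all FITChigh points above all FITCdim points, while the points of the other factors overlap.

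Hand2, a basic helix-loop-helix factor needed for the formation of the ventricles, rose the most. It had 443, 447 and 404 adjusted counts in FITChigh replicates 1, 2 and 3, against 207, 254 and 361 in FITCdim replicates 1, 2 and 3. The FITChigh libraries lay close together and FITCdim spread widely, with FITCdim replicate 3 nearest to FITChigh. The means were 431 ± 23.7 in FITChigh and 274 ± 78.5 in FITCdim (± SD, n = 3 per gate), a log2 fold change of 0.69 (SE 0.17, limma adjusted p = 0.011), which is 1.61-fold (95% interval 1.25 to 2.08).

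The Hand2 gene (chromosome 8, 57320983 to 57324633 in mm10, plus strand) shares 461 exonic bases, 19.6% of its exons in GENCODE, with the antisense noncoding gene Hand2os1. The library kit was strand-specific per the labels' protocols, but whether counting used strand is not stated in them. Reads of the pair may therefore not have been told apart, and Hand2os1 was not found by name among the deposited genes.

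Gata6, a zinc finger factor active in heart, vessels and gut (chromosome 18, 11052064 to 11085635, plus strand), also rose. It had 338, 292 and 327 adjusted counts in FITChigh, against 218, 209 and 254 in FITCdim. The lowest FITChigh library lay above the highest FITCdim library. The log2 fold change was 0.49 (SE 0.14, limma adjusted p = 0.023), which is 1.4-fold (95% interval 1.14 to 1.72).

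Its relative Gata4, a partner of Nkx2-5 and Tbx5 at many heart genes (chromosome 14, 63198922 to 63271692, minus strand), did not pass the test. It had 445, 422 and 532 adjusted counts in FITChigh, against 436, 408 and 528 in FITCdim, and the gates overlapped throughout. On the log2 scale the fold change was 0.03 (95% interval -0.27 to 0.33, limma adjusted p = 0.92), so a change in either direction beyond 1.26-fold upward or to 0.827 of the FITCdim level lay outside the interval.

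The pair was also compared within each library, which does not depend on how libraries are scaled. The log2 ratio of Gata4 to Gata6 was 0.40, 0.53 and 0.70 in FITChigh and 1.00, 0.96 and 1.05 in FITCdim. The ratio was thus lower in every FITChigh library than in any FITCdim library, with a difference of -0.46. The exact two-sided permutation test gave p = 0.1, below which 2 groups of 3 libraries cannot go (adjusted over 5 paralog ratios, 0.5).

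Nkx2-5, the homeodomain factor of early and adult heart muscle (chromosome 17, 26838664 to 26845009, minus strand), had 165, 155 and 133 adjusted counts in FITChigh, against 96, 121 and 124 in FITCdim. All FITChigh libraries lay above all FITCdim libraries, though FITChigh replicate 3 exceeded the highest FITCdim library by little. The log2 fold change of 0.41 (SE 0.16) had an unadjusted interval of 0.06 to 0.76 and did not pass over all genes (limma adjusted p = 0.11). Library titles match across the gates by a tag, and the labels do not say what it stands for. With that tag as a block, Nkx2-5 was called higher (limma adjusted p = 0.046).

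Neither T-box member passed. Tbx5, the factor mutated in Holt-Oram syndrome (chromosome 5, 119832668 to 119885219, plus strand), had 143, 109 and 140 adjusted counts in FITChigh and 133, 140 and 133 in FITCdim. Its libraries varied little, apart from the low FITChigh replicate 2, and the log2 fold change was -0.06 (95% interval -0.40 to 0.28, limma adjusted p = 0.86). Tbx20, which holds adult myocytes in their working state (chromosome 9, 24718138 to 24774303, minus strand), had 309, 242 and 334 in FITChigh and 279, 198 and 344 in FITCdim. Here replicate 2 was the lowest and replicate 3 the highest library in both gates. On the log2 scale the fold change of Tbx20 was 0.13 (95% interval -0.27 to 0.53, limma adjusted p = 0.70). The log2 ratio of Tbx5 to Tbx20 averaged -1.16 ± 0.07 in FITChigh and -0.98 ± 0.44 in FITCdim (mean ± SD, n = 3 per gate; exact two-sided permutation p = 0.7).

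The MEF2 factors, calcium-responsive activators held in check by class IIa histone deacetylases, had the highest SDs relative to the mean of the 10 in FITChigh (18.3% to 47.3%). In FITCdim Mef2d (30.0%) and Mef2a (29.6%) were also highest, but Mef2c (18.2%) lay below Hand2 (28.7%) and Tbx20 (26.7%). Mef2a (chromosome 7, 67231163 to 67372858, minus strand) had 155, 137 and 310 adjusted counts in FITChigh and 238, 168 and 309 in FITCdim. Replicate 3 stood far above the other libraries in FITChigh, and was highest in FITCdim too. For comparison, the median SD over 3060 tested genes with a mean level of 100 to 600 was 11.9% of the mean in FITChigh and 12.2% in FITCdim. The log2 fold change of Mef2a was -0.30 (95% interval -0.86 to 0.25, limma adjusted p = 0.50), an interval that holds both a fall to 0.552 of the FITCdim level and a 1.19-fold rise.

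Mef2c, the MEF2 factor needed first in the embryonic heart (chromosome 13, 83504034 to 83667080, plus strand), had the lowest fold change of the 10. It had 125, 140 and 177 adjusted counts in FITChigh, against 170, 164 and 225 in FITCdim. The gates overlapped only through FITChigh replicate 3, which lay above FITCdim replicates 1 and 2. On the log2 scale the fold change was -0.33 (95% interval -0.70 to 0.04, limma adjusted p = 0.23). With the title tag as a block, Mef2c was called lower (limma adjusted p = 0.046).

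Mef2d, linked to stress-dependent growth of the mouse heart (chromosome 3, 88142372 to 88172086, plus strand), had 443, 251 and 504 adjusted counts in FITChigh and 308, 303 and 497 in FITCdim. The libraries of FITChigh reached both the lowest and the highest value. The log2 fold change was 0.09 (95% interval -0.40 to 0.58, limma adjusted p = 0.84). Exons of Mef2d share 531 bases, 8.87% of their length, with an antisense gene, 1700113A16Rik. Those of Mef2a share 302 bases, 2.06%, with Lysmd4 on the other strand. Those of Gata6 share 93 bases, 1.43%, with 1010001N08Rik, also on the other strand.

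Ratios within the MEF2 family did not separate the gates. The log2 ratio of Mef2a to Mef2c averaged 0.36 ± 0.42 in FITChigh and 0.33 ± 0.25 in FITCdim (mean ± SD, n = 3 per gate; exact two-sided permutation p = 1). That of Mef2a to Mef2d averaged -1.03 ± 0.42 in FITChigh and -0.63 ± 0.24 in FITCdim (exact two-sided permutation p = 0.2), and that of Mef2d to Mef2c 1.39 ± 0.50 in FITChigh and 0.96 ± 0.16 in FITCdim (exact two-sided permutation p = 0.4).

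Srf, the MADS-box factor that switches between growth-response and muscle genes with its cofactors (chromosome 17, 46548329 to 46556175, minus strand), had 484, 357 and 464 adjusted counts in FITChigh and 350, 362 and 424 in FITCdim. FITChigh replicate 2 lay among the FITCdim libraries and the other FITChigh libraries lay above them. On the log2 scale the fold change was 0.19 (95% interval -0.12 to 0.51, limma adjusted p = 0.44).

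Several factors were highest in the same replicate of both gates. Replicate 3 carries the tag 3-4 in the titles of both gates, replicate 2 the tag 1-2, and replicate 1 no tag. In FITCdim it was the highest library for 9 of the 10 factors, all but Tbx5, against 32.6% of all tested genes. In FITChigh it was highest for 5, Gata4, Mef2a, Mef2c, Mef2d and Tbx20, against 35.4% of all tested genes. Those 5 were highest in replicate 3 of both gates, as were 16.1% of all tested genes. Summed over the 10 factors, levels were 3050, 2550 and 3330 adjusted counts in FITChigh and 2430, 2330 and 3200 in FITCdim, so the gates overlapped and replicate 2 was lowest in each. The labels do not say what the tag stands for.

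The same sum was set against the RNA of the cardiomyocyte markers. Per 1000 adjusted counts of the 18 cardiomyocyte markers, the 10 factors had 5.98, 5.05 and 7.08 in FITChigh and 7.84, 6.55 and 8.80 in FITCdim. Each FITChigh library stood below the FITCdim library with the matching title, and the ranges of the gates overlapped. Of those 18 markers, 3 rose, 0 fell and 15 did not pass, against 2.51% called higher and 13.5% lower of all tested genes. Their median log2 fold change was 0.47. That median was 0.27 with 1 common total or with limma-voom and 0.02 after quantile normalization.

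**Figure D2:**
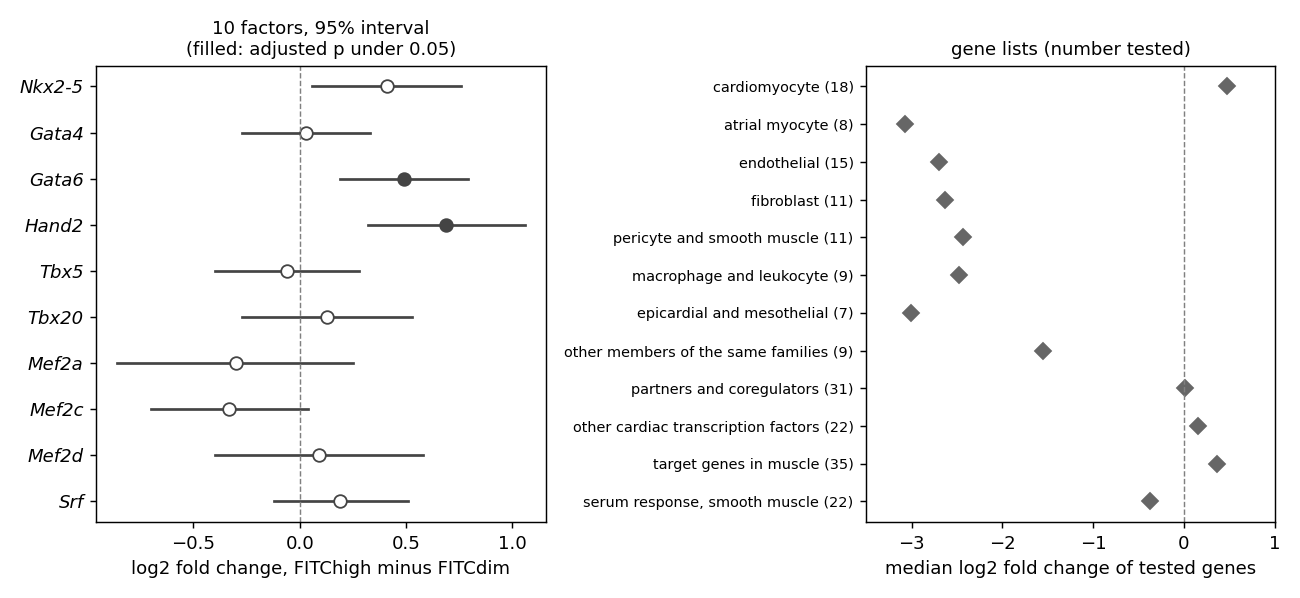
Left, log2 fold change (FITChigh minus FITCdim, horizontal axis) of each factor with its 95% interval, filled where the adjusted p was under 0.05. Right, median log2 fold change of the tested genes of each list. Only Hand2 and Gata6 are filled, and the medians of lists of other cell types lie between -3.07 and -2.44, outside the range of the 10 factors.

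The calls depended on scaling. When all libraries were rescaled to 1 common total, the median of all tested genes moved to -0.20, and no factor was called higher. Hand2 then stood at 0.49 (limma adjusted p = 0.056) and Gata6 at 0.29 (0.21), while Mef2c was called lower at -0.54 (0.048). Quantile normalization kept Hand2 at 0.59 (0.025) and Gata6 at 0.43 (0.046) as called. Scaling to the median cardiomyocyte marker, chosen after seeing the data, gave 0.30 for Hand2 (0.28), 0.10 for Gata6 (0.71) and -0.72 for Mef2c (0.015), with a median of all genes of -0.37. Hand2 had the highest and Mef2c the lowest fold change of the 10 under each of these 4 scalings.

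**Figure D3:**
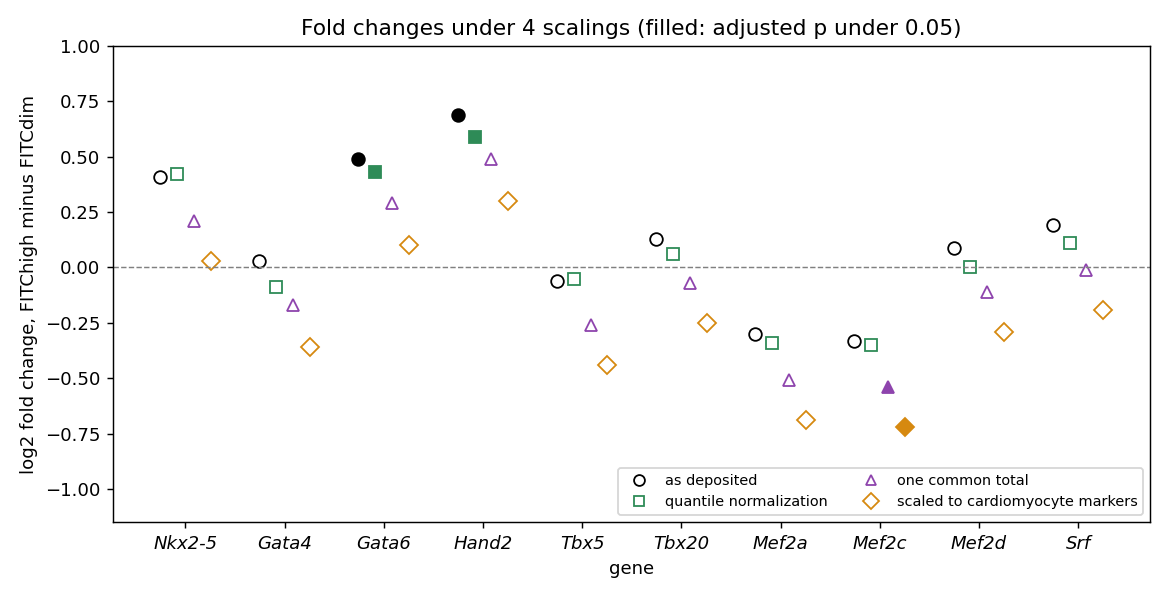
Log2 fold change (FITChigh minus FITCdim, vertical axis) of each factor as deposited, after quantile normalization, with one common total and scaled to cardiomyocyte markers, filled where the adjusted p was under 0.05. Hand2 is filled at 0.69 and 0.59 and Gata6 at 0.49 and 0.43, and Mef2c is filled at -0.54 and -0.72.

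Single libraries mattered as well. Hand2 was not called without FITChigh replicate 1 (limma adjusted p = 0.051) or FITCdim replicate 1 (0.069). Gata6 was not called without FITChigh replicate 1 (0.11) or 3 (0.064) or without FITCdim replicate 1 (0.093) or 2 (0.095). With 1 library left out, the log2 fold change ran from 0.51 to 0.91 for Hand2 and from 0.43 to 0.57 for Gata6.

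Levels of the factors were compared with each other per kb of merged GENCODE exons. In FITChigh the order was Hand2 (184 ± 10.1 adjusted counts per kb), Srf (151 ± 23.6), Gata4 (120 ± 14.8), Nkx2-5 (87.9 ± 9.49), Mef2d (66.7 ± 22.0), Gata6 (49.0 ± 3.74), Tbx5 (28.0 ± 4.05), Tbx20 (24.6 ± 3.98), Mef2a (13.6 ± 6.45) and Mef2c (9.40 ± 1.72) (mean ± SD, n = 3 per gate). In that gate the ranges of neighbours did not overlap between Hand2 and Srf, Gata4 and Nkx2-5, or Gata6 and Tbx5, and overlapped for the other neighbours. In FITCdim, Srf (131 ± 13.8), Gata4 (117 ± 16.1) and Hand2 (117 ± 33.4) led with overlapping ranges, and the order from Nkx2-5 (66.1 ± 8.96) down to Mef2c (11.9 ± 2.16) was as in FITChigh. The authors' annotation was not named in the sources used, and the merged exons of Mef2a, Mef2c and Tbx20 are long (14.7, 15.7 and 12 kb). Per kb of coding sequence, Hand2, Gata4 and Srf led in that order in both gates and Tbx5 came last in both. Nkx2-5 then ranked 7 in FITChigh and 8 in FITCdim. The order among the leading factors and below them thus depended on the length used.

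**Figure D4:**
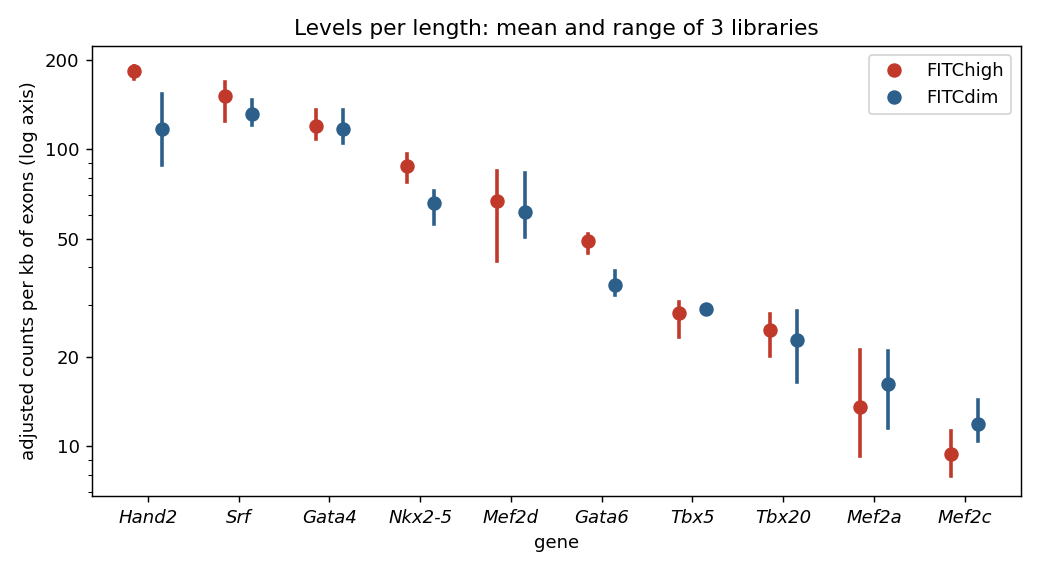
Adjusted read counts per kb of merged exons (log axis) of each factor, FITChigh in red and FITCdim in blue, as the mean (point) and range (line) of 3 libraries. Hand2, Srf and Gata4 lie at 88.2 or above in every library, and Mef2a and Mef2c lie lowest in both gates.

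Of 27 other members of the NK2, GATA, MEF2, HAND and T-box families, 9 were tested. None rose, 5 fell and 4 did not pass, against 2.51% called higher and 13.5% lower of all tested genes. The median log2 fold change of the 9 was -1.55. Of the 18 not tested, none had more than 3 reads over a gate.

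Gata2, the GATA factor of blood and endothelial cells, had 10.5 ± 3.29 adjusted counts in FITChigh and 68.4 ± 9.89 in FITCdim (mean ± SD, n = 3 per gate; log2 fold change -2.62, limma adjusted p = 8.2e-06). Among T-box genes, Tbx2 and Tbx3, repressors in cushion and conduction tissue, fell with log2 fold changes of -2.66 (limma adjusted p = 3.7e-04) and -1.42 (0.0011). Tbx18, a factor of epicardium and mural cells, fell by 1.55 on the log2 scale (0.015), and Tbx6 fell by 1.88 (0.048) on 2 reads over FITChigh and 19 over FITCdim. The Tbx18 call was lost after quantile normalization (limma adjusted p = 0.13) and without FITChigh replicate 1 (0.059), FITCdim replicate 1 (0.061) or FITCdim replicate 2 (0.085). That of Tbx6 was lost with a pseudocount of 5 (0.065), after quantile normalization (0.23) and without any 1 library other than FITChigh replicate 3 (0.069 to 0.36). Gata5, Tbx1, Tbx15 and Mga did not pass, at -1.86, -0.11, 0.61 and -0.15. Gata5 lay at the threshold (limma adjusted p = 0.05) and was called lower under 8 of its 15 alternatives, and over all 15 its adjusted p ran from 0.018 to 0.29. Of these 4, only Mga had more than 15 reads over a gate. Whether these relatives differed from the 10 factors in their fold change was not tested.

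Marker lists of the cell types that make some of these genes were also lower in FITChigh. The epicardial list includes Tbx18, one of the relatives above. Among all tested genes, 13.5% were called lower and 2.51% higher. All 15 endothelial markers fell (median log2 fold change -2.70), and their sum was 857 to 1190 adjusted counts in FITChigh and 6330 to 7240 in FITCdim. Of 11 tested fibroblast markers, 10 fell and 1 did not pass (median -2.63), with sums of 291 to 337 in FITChigh and 822 to 1360 in FITCdim. Of 11 pericyte and smooth muscle markers, 9 fell (median -2.44). All 9 tested leukocyte markers and all 7 tested epicardial markers fell (medians -2.48 and -3.01). Of 8 tested atrial markers, 7 fell (median -3.07), with sums of 295 to 546 in FITChigh and 1340 to 2700 in FITCdim. The part of these cells in the levels of the 10 factors was not tested.

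Partners of the factors mostly did not pass. Of 31 cofactors, kinases and repressors, none rose, 2 fell and 29 did not pass, with a median log2 fold change of 0.01. Of all tested genes, 2.51% were called higher and 13.5% lower. Smyd1, a muscle-restricted methyltransferase and the most abundant of the 31 by adjusted count, stood at 2400 ± 148 in FITChigh and 2020 ± 221 in FITCdim (mean ± SD, n = 3 per gate; log2 fold change 0.25, limma adjusted p = 0.24). Myocd, the SRF coactivator of heart and smooth muscle, stood at 0.32 (0.26), and Zfpm2, a GATA4 partner, at 0.14 (0.71). Hdac7, a repressor of MEF2 factors known from endothelial cells, fell to 50.3 ± 9.77 adjusted counts in FITChigh, against 138 ± 9.69 in FITCdim (mean ± SD, n = 3 per gate; -1.45, limma adjusted p = 3.9e-05). Its relatives Hdac4, Hdac5 and Hdac9 did not pass, at -0.10, 0.16 and -0.28. The other fall was Nfatc4, on 3 reads over FITChigh and 22 over FITCdim.

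Most other transcription factors of the heart missed the threshold, which 2.51% of all tested genes passed as higher and 13.5% as lower. Of 22 tested, Irx3, an Iroquois factor of the ventricular conduction system, rose (0.66, limma adjusted p = 0.041), 5 fell and 16 did not pass (median 0.16). Those that fell included Nr2f2, which sets atrial identity (-2.93, limma adjusted p = 7.2e-05), Hey1, a Notch target (-2.06, 0.0014), and Ebf1 (-2.06, 0.012). Ppargc1a, a coactivator of mitochondrial genes and the most abundant by adjusted count, stood at 0.35 (0.21).

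Known target genes of the factors in muscle were listed as a group. Of 35 tested, Tnni3 and Myom1 rose, Myl7, Nppa and Gja5 fell and 30 missed the threshold, at a median log2 fold change of 0.36. Among all tested genes, 2.51% were called higher and 13.5% lower. Tnni3, cardiac troponin I, stood at 0.66 (limma adjusted p = 0.042) and Myom1, an M-band protein, at 0.61 (0.012). Gja5, the connexin of atrium and conduction fibres and a target of Tbx5 and Nkx2-5, had 3.83 ± 3.85 adjusted counts in FITChigh and 25.3 ± 11.1 in FITCdim (mean ± SD, n = 3 per gate; -2.69, limma adjusted p = 0.0028). Nppa and Myl7 are also atrial markers, and this list shares 13 genes with the cardiomyocyte markers.

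Growth-response and smooth muscle targets of SRF were lower on balance. Of 22 tested, none rose, 10 fell and 12 did not pass (median -0.37), against 2.51% called higher and 13.5% lower of all tested genes. Srf itself stood at 0.19. Tagln, Myh11 and Cnn1, which mark smooth muscle, were among those that fell, with Tagln at -3.11 (limma adjusted p = 0.0013) and Myh11 at -2.78 (8.2e-06). These genes are also on the list of pericyte and smooth muscle markers. Of the immediate-early genes, Egr3 (-2.69, limma adjusted p = 0.0052), Egr2 (-1.36, 0.017), Fosb (-1.26, 2.6e-05) and Egr1 fell, and Fos (-0.30), Junb (0.09) and Ier2 (0.12) did not pass. Egr1 had 1850 ± 114 adjusted counts in FITChigh and 2460 ± 221 in FITCdim (mean ± SD, n = 3 per gate; -0.41, limma adjusted p = 0.048). Tpm1, the most abundant by adjusted count, stood at 0.50 (0.15).

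Genes with the profile most like that of 2 members were named by the smallest root mean square difference over the 6 libraries, each gene centred on its own mean, among 9499 genes with a mean level of at least 10. For Hand2, with the largest rise, they were Gadd45g (0.0531 on the log2 scale), Ybx2 (0.0767) and Myh14 (0.0911). Gadd45g had 220, 236 and 216 adjusted counts in FITChigh, against 107, 140 and 181 in FITCdim. For Mef2c, with the lowest fold change, they were Syne1 (0.0604), Klf12 (0.0698) and Yipf6 (0.0742). Syne1, which encodes a large protein of the nuclear envelope, had 260, 312 and 361 in FITChigh, against 366, 379 and 482 in FITCdim.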

How the data were processed

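Libraries of 6 sorted mouse samples were made from polyadenylated RNA with a strand-specific kit and read from both ends (75 bp) on a NextSeq instrument, per the labels' protocols. STAR 2.5, edgeR and mm10 are named in the submitters' processing notes; the counting program and the annotation are not stated there. The authors deposited a table of signal values, 1 for each gene in each library, which are reads per gene adjusted so that libraries have a common size. Columns were matched to samples by title. Of 23410 gene lines, 6 were garbled and left out. The reads behind the values were worked out by reversing the quantile adjustment under a negative binomial model (fitted dispersion 0.0203). Recomputed values matched the deposited ones within 0.1 for 99.98% to 100% of genes in each library. Recovered reads served for depth and for 1 alternative, limma-voom. That alternative scaled libraries by their total reads, without the scaling of the deposited values, and so resembles the alternative with one common total.

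Genes reaching a value of 1 in 3 or more libraries were tested with R 4.3.3 by the two-sided limma-trend method of limma 3.58.1, without a block, on log2(value + 1) for FITChigh minus FITCdim. On that scale the change of a low gene comes out too small. The p-values rest on the spread among these 6 libraries, which are numbered in accession order. The pipeline was checked on simulated reads. Libraries of a gate differed by more than sampling noise (chi-square 3.63 to 6.09 for each degree of freedom). Alternatives changed the pseudocount, filter, scaling, variance model, block and libraries.

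Members, lists and named genes were chosen with earlier results of these data known, and lists were not tested as sets. All 10 members are named, with the highest gene and up to 3 called genes of a list, every tested family relative and the 3 nearest profiles of 2 members; not every gene this takes is reported. Other genes named were chosen after their values were seen. Positions are GENCODE M21 on mm10.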

Additional observations from a re-analysis of the deposited data

How the results depend on the processing

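Counts of called genes and fold changes of the factors were recomputed under 16 alternatives, and paralog ratios under 9 (pseudocount, block and libraries). Gata5, Tbx1, Tbx6, Tbx15 and Tbx18 did not enter the stricter filter. Hand2 kept its direction in all 16 and was called in 12 of them, and Gata6 kept its direction in all 16 and was called in 9. Genes called higher numbered 324 and lower 1748. Genes called higher numbered 41 with one common total, 54 with limma-voom on recovered reads and 10 (2995 lower) when scaled to the median cardiomyocyte marker, which was added after seeing the data. Higher genes made up 15.6% of calls as deposited, 1.84% with one common total, 2.36% with limma-voom, 27.8% after quantile normalization and 0.333% with marker scaling. Among the factors, 0 were higher and 1 lower with one common total and with marker scaling, and 1 higher and 1 lower with limma-voom, where Hand2 (0.49, limma-voom adjusted p = 0.046) was higher and Mef2c (-0.53, 0.046) lower. Leaving out 1 library gave 67 to 341 higher genes, 1152 to 1672 lower genes and 0 to 2 higher factors; fewer libraries also leave less power.

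With the title tag as a replicate block, 1064 genes were higher and 2059 lower, and 3 factors were higher and 1 lower, since Nkx2-5 (0.41, limma adjusted p = 0.046) and Mef2c (-0.33, 0.046) were then called. Libraries with matching titles (no tag, 1-2 and 3-4) deviated together at r = 0.07, 0.13 and 0.17 over all tested genes, and at 0.16, 0.47 and 0.48 over 5834 genes with a mean of at least 50. The first pair was under 0.1 over all tested genes, so the main fit did not take the tag as a pairing. Every pair was above 0.1 over genes with a mean of at least 50. These correlations do not settle whether the libraries were paired.

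Fold changes near 0 changed sign. Gata4 stood at -0.17 with one common total and with limma-voom, -0.09 after quantile normalization and -0.36 with marker scaling. For Mef2d these were -0.11 with one common total, -0.09 with limma-voom and -0.29 with marker scaling, for Tbx20 -0.07, -0.07 and -0.25, and for Srf -0.01, 0.00 (just below 0) and -0.19. Without single libraries the range was -0.07 to 0.14 for Gata4, -0.11 to 0.39 for Mef2d, -0.13 to 0.07 for Tbx5 and -0.08 to 0.31 for Tbx20. The range was -0.72 to 0.51 for Tbx1, -0.06 to 1.33 for Tbx15, -0.19 to 0.23 for the Mef2a/Mef2c log2 ratio difference and -0.38 to 0.05 for the Tbx5/Tbx20 log2 ratio difference. After quantile normalization Tbx1 stood at 0.60. The cause of these changes was not tested. Reads of 70 to 719 per library and 3 libraries a gate limit what can be seen.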
